A study of Arabidopsis thaliana with 29 samples.

Results

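Mitochondrion-encoded genes of Arabidopsis thaliana were followed through embryo development as the 152 genes, of 33341 in the table of read counts, whose identifiers begin with ATMG. The data are RNA-seq counts of hybrid embryos from reciprocal crosses of the accessions Tsu-1 and Col-0, isolated by hand and washed apart from the maternal tissue, and of ovules before fertilization. Crosses are written with the mother before the father. The 29 libraries fall into 15 groups: unfertilized ovules of Col-0 (female and male parent strain both given as Col-0), and embryos of Tsu-1 × Col-0 and of Col-0 × Tsu-1 at 7 stages (zygote, octant and globular, then heart and torpedo, then bent and mature). A pair of libraries labelled as biological replicates stands for each group, but for Col-0 × Tsu-1 zygotes there is 1 library, pooled from 3 technical ones of the same RNA. Globular Col-0 × Tsu-1 replicate 1 likewise joins 2, and both mix single-end with paired-end reads. The number of embryos in a library is not given in the sources used here. The labels name no transgene and no treatment.

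Mitochondria carry a small genome that encodes core subunits of the respiratory chain and of ATP synthase, part of the cytochrome c maturation machinery, some ribosomal proteins and the organelle's ribosomal RNAs. All other mitochondrial proteins come from the nucleus. In Arabidopsis the mitochondria are inherited from the mother, so embryos of the 2 crosses have the same nuclear parents but carry mitochondria of different accessions, Tsu-1 in Tsu-1 × Col-0 and Col-0 in Col-0 × Tsu-1. Plant mitochondrial transcripts are not stably polyadenylated, and a poly(A) tail marks them for decay. The libraries were made from polyA RNA amplified as antisense RNA, so a read of a mitochondrial gene reports the part of its RNA that entered that protocol, not its level in the organelle.

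Col-0 carries a large insertion of mitochondrial DNA in chromosome 2, and much of it is near-identical to the mitochondrial genome. In the TAIR10.1 reference, 17 of 32 mitochondrial protein-coding sequences had an identical match over their whole length between bases 3200000 and 3700000 of chromosome 2, 22 matched at 99% or more, and 8 matched over less than 50% of their bases. The coding sequence of atp9, a membrane subunit of ATP synthase, is shown because it is the same on both chromosomes, at chrM:270961-271185 and within AT2G07671 at chr2:3251856-3252080, both on the minus strand (RefSeq, TAIR10.1). By this reference, no read within it can be placed on 1 copy. The submitters' notes name the build TAIR10, whose mitochondrial sequence was not compared here.
atp9: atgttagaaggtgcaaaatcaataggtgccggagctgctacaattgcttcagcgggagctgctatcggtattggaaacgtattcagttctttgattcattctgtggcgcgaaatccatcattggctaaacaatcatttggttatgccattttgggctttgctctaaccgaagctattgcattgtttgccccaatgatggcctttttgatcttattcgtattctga
The stretch that begins 310 bases downstream of it is shown because its gene was lower in Tsu-1 × Col-0 at each of the 7 stages. AT2G07777 on chromosome 2, whose best protein match in the annotation is ATMG01090 (listed there as ATP synthase 9 mitochondrial), has a coding sequence of 789 bases at chr2:3250757-3251545 that differs from chrM:269862-270650 at 2 bases. The 60 bases around the first of them follow, from chrM:270362-270421 and chr2:3251257-3251316, both on the minus strand, with the base that differs in capitals.
mitochondrion: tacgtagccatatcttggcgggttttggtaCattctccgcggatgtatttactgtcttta
chromosome 2: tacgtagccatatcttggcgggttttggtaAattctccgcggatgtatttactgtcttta
By the same TAIR10.1 sequences, a read that covers neither differing base cannot be placed on 1 of these copies.

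The RefSeq annotation names 24 of the 152 genes, through the chromosome 2 genes whose best protein match they are, and links 53 to a copy on chromosome 2. By these names the 24 are 3 subunits of complex I, apocytochrome b of complex III, subunit 3 of cytochrome c oxidase (complex IV), 5 genes of ATP synthase, 3 of cytochrome c biogenesis, 4 ribosomal proteins and 7 with other names. The 5 include ATMG01090, which is named for subunit 9 but begins 310 bases downstream of the atp9 coding sequence. Its place among them rests on the name alone. The groups are not whole complexes. NADH dehydrogenase subunits 9 and 4L had no match in this part of chromosome 2 and have no name here. Subunits 4 and 6 matched there in full and have none either, so a match alone did not give a name. The other 128 have no name there and are given by identifier alone. Among them ATMG00020, ATMG01380 and ATMG01390 were set apart as the ribosomal RNA genes. Not all counts are whole: 57.4% of the non-zero values of the mitochondrial genes were not whole numbers, against 22.7% for all genes, 68.5% for 115 genes of the chromosome 2 insertion and 40.9% for 133 chloroplast genes. Within the mitochondrial set, 5 pairs, among them ATMG00170 with ATMG00620, had identical values in all libraries and count as 1 signal each. How reads that match several places were counted is not given in the sources used here, so the value of a gene with a near-identical copy is uncertain between the copies.

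Library totals ran from 689780.0 to 60410492 reads and mitochondrial reads from 103 to 727993, both extremes being bent Tsu-1 × Col-0 replicate 2 and zygote Col-0 × Tsu-1. The shallowest library had at least 10 reads in 1 mitochondrial gene. Seed storage genes took 62.2% and 59.1% of all reads in mature Col-0 × Tsu-1 embryos, against 19.5% and 19.7% in mature Tsu-1 × Col-0 embryos, so shares at the last stages depend on what else the library holds. Summed seed coat markers, a sign of maternal tissue, lay between 3937 and 7981 CPM (reads of a gene scaled to a common library total) in zygote and octant libraries of both crosses, at 235 and 190 CPM in ovules, and between 7.81 and 15.7 CPM in mature embryos. The summed endosperm markers ran from 0.840 to 89.5 CPM and the embryo patterning markers from 56.8 to 3014 CPM.

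The share of reads from mitochondrial genes was highest in Col-0 × Tsu-1 zygotes, which have 1 library, and lowest in bent embryos. It was 0.177% and 0.416% in ovules. Zygotes had 0.0539% and 0.102% with a Tsu-1 mother and 1.21% with a Col-0 mother. Fewer cells with active mitochondria and less mitochondrial RNA per cell cannot be told apart in such bulk libraries. At octant the share was 0.0587% and 0.0434% in Tsu-1 × Col-0, against 0.199% and 0.205% in Col-0 × Tsu-1. At globular it was 0.0513% and 0.101%, against 0.165% and 0.0685%. Through these stages the Col-0 × Tsu-1 libraries were high or overlapped with the other cross.
At heart the share was 0.0817% and 0.112% in Tsu-1 × Col-0, against 0.150% and 0.114% in Col-0 × Tsu-1. At torpedo it was 0.0424% and 0.0659%, against 0.0637% and 0.0313%. Bent embryos had 0.0188% and 0.0149%, against 0.0184% and 0.0109%, so the crosses overlapped at torpedo and at bent. Mature embryos had 0.0644% and 0.0774% in Tsu-1 × Col-0, against 0.0138% and 0.0117% in Col-0 × Tsu-1, and here the order of the crosses was the opposite of that at octant.

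Averaged over both crosses, the share was 0.0508% ± 0.0168 at torpedo, against 0.114% ± 0.0278 at heart, and 0.0157% ± 0.00365 at bent (SD, n = 4 each). These are mean log2 differences of -1.20 and -1.66, larger than the SD of 0.44 between libraries in log2 share for each step. Without ATMG00020, ATMG01380 and ATMG01390 they were -0.51 and -1.32 (SD 0.23 each), and with TMM library sizes, which correct for genes that take a large part of a library, -1.37 and -0.96 (SD 0.56 and 0.57). No test is given for shares, since they are sums over the chosen genes. The other steps had log2 differences within the SD between libraries: -0.53 (SD 2.00) for zygote over ovule, -0.90 (SD 1.75) for octant over zygote, -0.21 (SD 0.98) for globular over octant, 0.35 (SD 0.58) for heart over globular and 0.96 (SD 1.05) for mature over bent. The last was 1.78 (SD 0.80) with TMM library sizes and 1.42 (SD 0.78) without those 3 genes, larger than the SD. Within stages the crosses differed: the share was 16.2-fold lower in Tsu-1 × Col-0 than in Col-0 × Tsu-1 at zygote, 4.01-fold lower at octant and 5.56-fold higher at mature. Without ATMG00020, ATMG01380 and ATMG01390 these were 7.20-fold lower, 2.61-fold lower and 3.59-fold higher. At mature the share was 2.72-fold higher with seed storage genes left out of the totals and 3.08-fold higher with TMM library sizes. The chloroplast share had the opposite order at octant, at 1.40% and 1.61% in Tsu-1 × Col-0, against 0.870% and 0.885% in Col-0 × Tsu-1. At mature it had the same order as the mitochondrial share, at 0.368% and 0.330%, against 0.0672% and 0.184%.

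**Figure D1:**
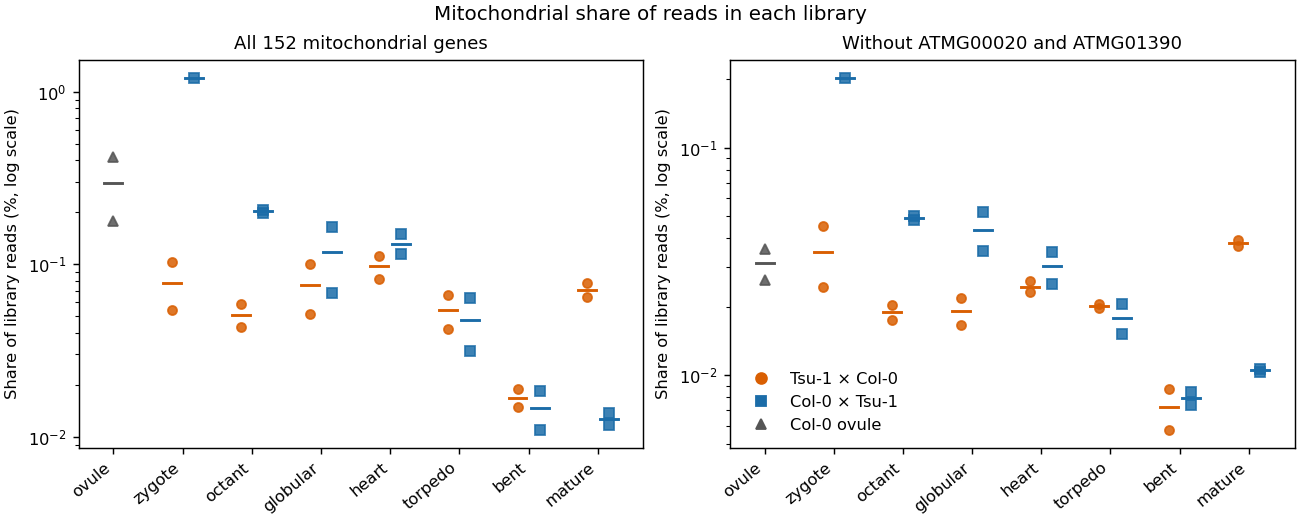
Share of library reads from mitochondrial genes (%, log scale) by stage, for all 152 genes (left) and without ATMG00020 and ATMG01390 (right). Each symbol is 1 library and each bar a group mean (1 library for Col-0 × Tsu-1 zygotes). The Col-0 × Tsu-1 zygote library stands at 1.21%, and at mature the Tsu-1 × Col-0 libraries, at 0.0644% and 0.0774%, stand above those of the other cross.

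Few genes made up most of these reads. ATMG00020 took between 9.40% and 89.4% of a library's mitochondrial reads (median 54.9%), and ATMG01390 between 1.10% and 22.3%. Both are among the genes set apart as ribosomal RNA, so the shares of all genes mix ribosomal with messenger RNA. ATMG00020 averaged 867 CPM over all libraries and ATMG01390 averaged 109 CPM. The next were ATMG00580 at 39.4, ATMG00030 at 27.3, ATMG00090 at 18.5, ATMG00830 at 14.2, ATMG00730 (subunit 3 of cytochrome c oxidase) at 13.2, ATMG00516 at 12.1, ATMG01360 at 11.8 and ATMG01370 at 11.6 CPM. Without the Col-0 × Tsu-1 zygote library, which held 2119 CPM of ATMG01390 and 416 CPM of ATMG00030, the means were 615 CPM for ATMG00020, 36.9 CPM for ATMG01390 and 13.4 CPM for ATMG00030, which then came after ATMG00090 at 15.998 and ATMG00830 at 13.5 CPM. CPM is not corrected for length, so this order ranks reads and not transcripts.
All 152 genes had reads in some library and 32 in every library. A mean of 5 CPM was reached by 19 genes and a mean of 1 CPM by 50, while 27 stayed under 10 reads in each library. Of the 50, 35 had their highest stage mean at zygote, 6 at ovule and 2 at mature. Over all 152 genes the numbers were 69, 22 and 43. These counts depended on a single library, that of zygotes with a Col-0 mother: without it, 13 of the 50 had their highest stage mean at zygote, 13 at ovule, 10 at octant and 6 at mature, and of all 152 genes 31 had it at zygote, 34 at ovule and 51 at mature.

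The annotated groups had their lowest summed CPM at bent. The 3 annotated complex I genes (ATMG00990, ATMG01275 and ATMG01320), which are not the whole complex, summed to 34.3 ± 28.1 CPM at globular and 2.27 ± 0.75 CPM at bent (SD, n = 4 each). The 5 genes named for ATP synthase, ATMG01090 among them, summed to 21.2 ± 2.43 CPM in ovules (n = 2), 116 ± 71.1 CPM in zygotes (n = 3) and 5.94 ± 1.79 CPM at bent (n = 4). Ribosomal protein genes summed to 29.7 ± 33.5 CPM in zygotes, 2.25 ± 0.56 CPM at bent and 6.54 ± 4.44 CPM at mature. Cytochrome c biogenesis genes summed to 16.2 ± 25.3, 1.51 ± 0.41 and 7.52 ± 5.55 CPM at the same 3 stages. At zygote and mature the libraries of the 2 crosses lay far apart, which the SDs hold.

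**Figure D2:**
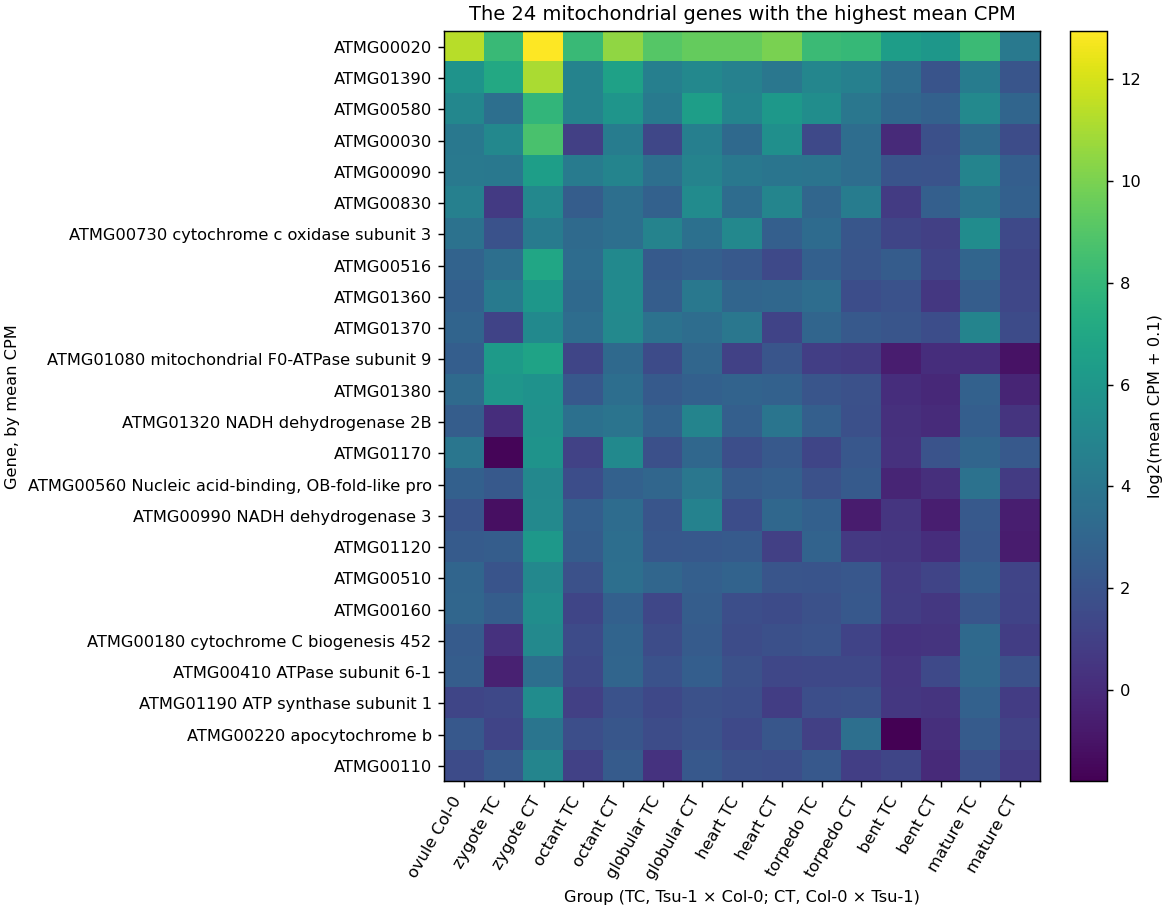
Mean level of the 24 mitochondrial genes with the highest mean CPM in each group, as log2(mean CPM + 0.1), with the groups in developmental order and Tsu-1 × Col-0 (TC) left of Col-0 × Tsu-1 (CT). ATMG00020 is the brightest row in every group, the zygote CT column is bright for nearly all genes, and the bent columns are dark.

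To ask which genes changed from stage to stage, edgeR's quasi-likelihood test was run on the whole table for each step, with Benjamini-Hochberg adjustment over all genes tested and a threshold of 0.05. Changes are log2 fold changes ± SE after TMM scaling.

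An ovule is a whole maternal organ, here of Col-0 only, so zygotes and ovules differ in cell makeup and partly in mitochondrial accession. Between zygotes and ovules, 4 of 92 mitochondrial genes tested were higher in zygotes and none was lower, where 8.8% of all genes tested were called. ATMG01080, the gene matching atp9 shown above, had 44.2 and 104 CPM in Tsu-1 × Col-0 zygotes and 107 CPM in the Col-0 × Tsu-1 zygotes, against 6.06 and 5.85 CPM in ovules. All 3 zygote libraries were high, whichever the mother, and the groups did not overlap. It rose by 4.52 ± 0.61 (adjusted p = 0.0144, edgeR). ATMG01380 had 39.6, 86.0 and 52.2 CPM in the same zygote libraries, against 8.13 and 11.04 CPM in ovules, and rose by 3.38 ± 0.57 (adjusted p = 0.0206). ATMG00080 averaged 11.4 ± 8.84 CPM in zygotes and 1.34 ± 0.78 CPM in ovules (3.66 ± 0.87, adjusted p = 0.0457). The other gene called, named once its value was seen, was ATMG01360 at 33.9 ± 26.2 CPM in zygotes and 6.49 ± 0.25 CPM in ovules (3.08 ± 0.70, adjusted p = 0.0414).
In the same libraries 10 of 13 seed coat markers were higher in zygotes, and their part in these changes was not tested. The median log2 change was 1.69 over the mitochondrial genes tested and 0.10 over all genes. The count rests on single libraries: it was 35 without the Col-0 × Tsu-1 zygotes, 2 and 1 without Tsu-1 × Col-0 zygote replicates 1 and 2, and 0 without either ovule library. Without ovule replicate 1 or 2, the adjusted p of ATMG01080 was 0.227 and 0.178, that of ATMG01380 was 0.284 and 0.227, and that of ATMG00080 was 0.275 and 0.343. Without Tsu-1 × Col-0 zygote replicate 2 it was 0.0582 for ATMG01380 and 0.0900 for ATMG00080, and without replicate 1 it was 0.0670 for ATMG00080.

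From zygote to octant, 32 of 59 genes tested fell and none rose. Members could pass the filter on low counts through the zygote libraries alone, so this is no share of all 152 genes. Of all genes tested 34.7% were called, and 18% were called lower. The median log2 change was -1.64 for the mitochondrial genes and -0.01 for all genes. In the same step 6 of 11 seed storage genes fell, 4 of 13 seed coat markers fell and 1 rose, and 4 of 13 embryo patterning genes tested rose, and their part was not tested. ATMG01080 had 2.48 and 2.28 CPM in Tsu-1 × Col-0 and 9.93 and 8.58 CPM in Col-0 × Tsu-1 octant embryos, all below the zygote values above (-4.92 ± 0.44, adjusted p = 0.00275, edgeR). ATMG01390 had 32.8, 21.8, 101 and 101 CPM in the same 4 octant libraries, against 120.0 and 156 CPM in Tsu-1 × Col-0 zygotes and 2119 CPM in Col-0 × Tsu-1 zygotes, and fell by 3.80 ± 0.47 on the log2 scale (adjusted p = 0.00330). ATMG01380 averaged 8.02 ± 3.96 CPM at octant (n = 4) and 59.3 ± 24.01 CPM at zygote (n = 3), a change of -3.70 ± 0.44 (adjusted p = 0.00330).
Of the 24 annotated genes, 9 of the 20 tested fell: 3 of 5 named for ATP synthase (ATMG01090 included), 2 of 3 ribosomal proteins, 1 of 3 complex I genes and 3 with other names. ATMG01270 (ribosomal protein S7) averaged 1.78 ± 0.75 CPM at octant and 7.54 ± 1.68 CPM at zygote, with no overlap (-2.80 ± 0.45, adjusted p = 0.00527). For ATMG01190, octant and zygote libraries overlapped: this gene, subunit 1 of ATP synthase, had 1.67 and 2.06 CPM at octant and 1.90 and 3.10 CPM at zygote in Tsu-1 × Col-0, against 3.66 and 3.67 CPM at octant and 40.6 CPM at zygote in Col-0 × Tsu-1. Of the genes called, 12 had a chromosome 2 copy that was also tested, and the copy was called lower for 11. A gene and its copy can share reads, so the copies are no separate evidence. Without octant Tsu-1 × Col-0 replicate 1 the count was 21.

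The steps from octant to torpedo moved few genes. At globular against octant 7 genes rose and 4 fell, of 45 tested, where 37.1% of all genes were called. With total-count scaling the split was 3 higher and 5 lower, which moved the median of all genes by -0.13. ATMG00560, an OB-fold protein by its annotation, had 8.41 and 8.41 CPM in Tsu-1 × Col-0 and 24.4 and 7.96 CPM in Col-0 × Tsu-1 globular embryos, against 3.67, 2.44, 7.44 and 6.26 CPM in the matching octant libraries (1.53 ± 0.36, adjusted p = 0.00683). ATMG00516 averaged 5.69 ± 2.29 CPM at globular and 23.98 ± 15.3 CPM at octant (SD, n = 4 each) and fell by 1.70 ± 0.34 on the log2 scale (adjusted p = 0.00273). All 13 seed coat markers fell in the same step (median log2 change -2.16), and their part in these changes was not tested. The count was 6 without octant Col-0 × Tsu-1 replicate 1 and 6 without replicate 2, and 21 without the filter on low counts.
At heart against globular 2 genes rose and 1 fell, of 44 tested, where 16.3% of all genes were called. They were named once their values were seen: ATMG00030 (1.21 ± 0.37, adjusted p = 0.0448), ATMG00370, a Ycf1 protein by its annotation (1.26 ± 0.39, adjusted p = 0.0463) and ATMG00990 (NADH dehydrogenase subunit 3, -1.27 ± 0.39, adjusted p = 0.0469). The count was 0 or 1 without any of 6 of the 8 libraries, all but globular Tsu-1 × Col-0 replicate 2 and heart Tsu-1 × Col-0 replicate 1.
At torpedo against heart 5 of 39 genes tested fell and none rose, where 20.2% of all genes were called. The filter on low counts could be passed through the heart libraries alone, so this is no share of all mitochondrial genes. ATMG00020 had 207 and 410 CPM in Tsu-1 × Col-0 and 450 and 93.8 CPM in Col-0 × Tsu-1 torpedo embryos, against 542, 856, 1128 and 873 CPM in the heart libraries of the same crosses. The stages did not overlap (-1.78 ± 0.50, adjusted p = 0.0341, edgeR). ATMG00730 averaged 7.18 ± 3.59 CPM at torpedo and 20.1 ± 18.2 CPM at heart (-1.45 ± 0.35, adjusted p = 0.0194). The count was 2 or 3 without any heart library but Tsu-1 × Col-0 replicate 1, 3 without torpedo Col-0 × Tsu-1 replicate 1, 8 without its replicate 2 and 2 when replicate 1 of torpedo Tsu-1 × Col-0 was left out. The adjusted p of ATMG00020 was 0.0680 to 0.0912 without those heart libraries and 0.0834 without that last torpedo library.

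At bent against torpedo 1 gene rose and 7 fell, of 31 tested, where 44.7% of all genes were called. Genes could pass the filter on low counts through the torpedo libraries alone, so this split is no result about all mitochondrial genes. ATMG00220, apocytochrome b of complex III, averaged 0.603 ± 0.507 CPM at bent and 6.94 ± 6.28 CPM at torpedo (-2.38 ± 0.38, adjusted p = 0.00028). ATMG01390 averaged 7.44 ± 4.40 CPM at bent and 27.7 ± 14.2 CPM at torpedo (-1.31 ± 0.46, adjusted p = 0.0348), and ATMG00580 averaged 7.70 ± 1.91 and 30.1 ± 15.98 CPM (-0.87 ± 0.33, adjusted p = 0.0462). In CPM no library of the 2 stages overlapped for these 3 genes. Each of 5 libraries, when left out, ended the call of ATMG00580 (adjusted p 0.0541 to 0.149, either Tsu-1 × Col-0 library of torpedo or bent, or bent Col-0 × Tsu-1 replicate 1). Another 5 did so for ATMG01390 (0.0553 to 0.162, torpedo Col-0 × Tsu-1 replicate 1, torpedo Tsu-1 × Col-0 replicate 2, bent Col-0 × Tsu-1 replicate 2 or either bent Tsu-1 × Col-0 library). The gene that rose was ATMG00480, subunit 8 of ATP synthase, at 1.53 ± 1.31 CPM at bent and 0.922 ± 0.531 CPM at torpedo (1.63 ± 0.40, adjusted p = 0.00555), with overlapping libraries. In the same step all 11 seed storage genes rose and of the 10 seed coat markers tested 7 fell and 1 rose, and their part was not tested. The count was 19 with total-count scaling, 13 without the filter on low counts and 1 with Col-0 × Tsu-1 libraries alone. It was 1 without bent Tsu-1 × Col-0 replicate 1, which leaves the shallow replicate 2 as the only bent library of that cross, 3 when replicate 2 of torpedo Tsu-1 × Col-0 was left out and 5 without bent Col-0 × Tsu-1 replicate 1.

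From bent to mature nearly every gene tested rose: 29 of 32 were higher and none was lower, where 54.8% of all genes were called and 25.5% were called higher. The median log2 change was 2.06 for the mitochondrial genes and -0.01 for all genes. All 10 annotated genes tested rose, among them apocytochrome b, subunit 3 of cytochrome c oxidase, 2 ATP synthase genes, NADH dehydrogenase 2B (ATMG01320, 2.40 ± 0.48, adjusted p = 0.00205) and ribosomal protein S12 (ATMG00980, 2.13 ± 0.46, adjusted p = 0.00306). Members that passed the filter did so in part through the mature libraries, so this share is no share of all 152 genes. In the same step 8 of 11 seed storage genes rose, the 3 seed coat markers tested fell, and of 12 embryo patterning genes tested 9 fell and 1 rose, and their part was not tested.
ATMG00090 had 29.1 and 27.9 CPM in Tsu-1 × Col-0 and 4.79 and 7.20 CPM in Col-0 × Tsu-1 mature embryos, against 3.53 and 4.35 CPM and 3.81 and 3.93 CPM in the bent libraries of the same crosses. Every mature library was above every bent library (2.53 ± 0.45, adjusted p = 0.000992, edgeR). Apocytochrome b (ATMG00220) had 5.27 and 5.20 CPM in Tsu-1 × Col-0 and 2.24 and 1.90 CPM in Col-0 × Tsu-1 mature embryos, against 0.374 and 0 CPM and 1.09 and 0.948 CPM at bent (2.95 ± 0.55, adjusted p = 0.00126). The libraries of ATMG00730 overlapped between the stages in Col-0 × Tsu-1: it had 2.11 and 3.13 CPM at mature and 1.19 and 2.57 CPM at bent there, while Tsu-1 × Col-0 had 37.5 and 45.9 CPM at mature and 3.12 and 1.45 CPM at bent. Total-count scaling moved the median of all genes by -0.94 and left 12 calls. With Col-0 × Tsu-1 libraries alone 9 genes were called, and with Tsu-1 × Col-0 libraries alone 57. Chromosome 2 copies of 9 called genes were also tested, and all 9 were called higher. Since copies can share reads with these genes, this is no separate evidence. Leaving out 1 library at a time gave between 24 and 34 calls.

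**Figure D3:**
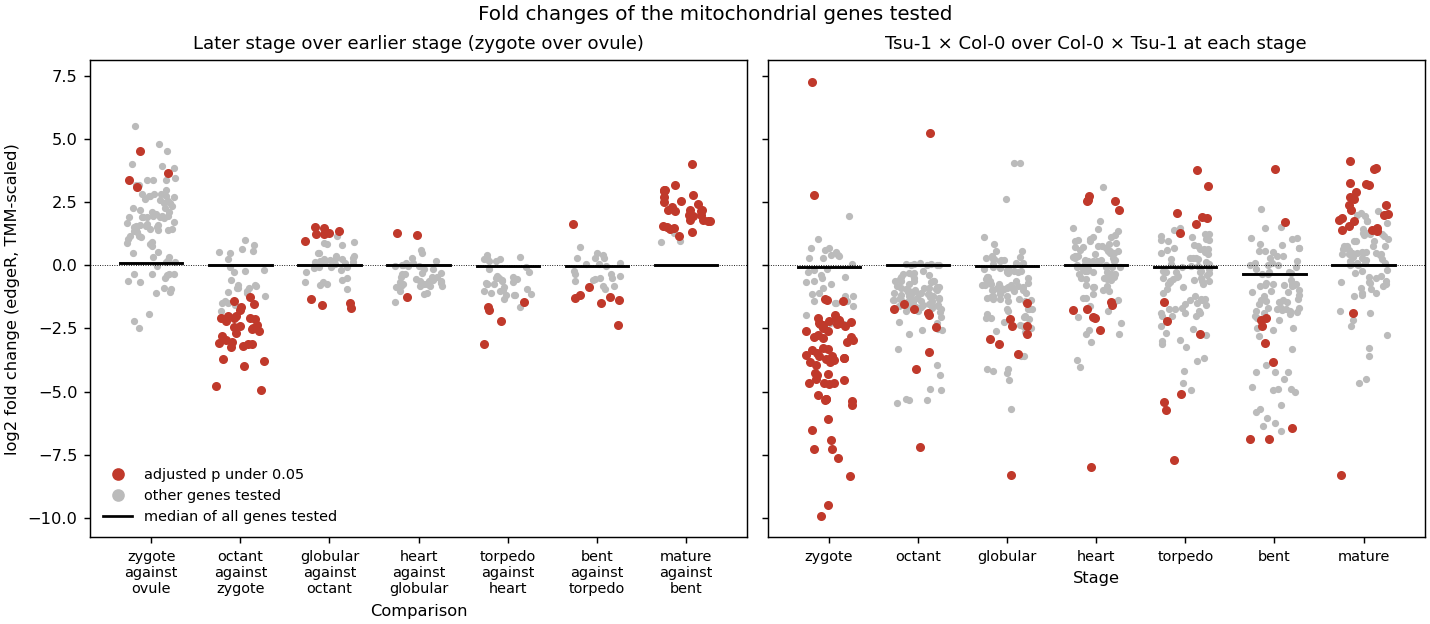
Log2 fold changes of the mitochondrial genes tested, for consecutive stages (left) and for Tsu-1 × Col-0 over Col-0 × Tsu-1 at each stage (right). Red points passed the threshold of 0.05 after adjustment over all genes, grey points did not, and black lines are medians of all genes tested. Octant against zygote has 32 called genes, all below 0, and mature against bent has 29, all above 0. Fold changes of genes without reads in 1 cross depend on the prior count.

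The reciprocal crosses were compared in 1 model of all 29 libraries, in which 100 mitochondrial genes were tested at each stage. Since 1 group has 1 library, a gene passed this model's filter on low counts if 1 library reached the cutoff. The comparisons from octant to mature called 44 genes at least at 1 stage, 9 of them lower in Tsu-1 × Col-0 at 2 or more stages, 9 higher at 2 or more and 7 in both directions at different stages. Of all 25062 genes tested, 39% were called at least at 1 of these stages, 6.5% were lower at 2 or more, 4.87% were higher at 2 or more and 2.44% were called in both directions. On the mean of the 6 stages 31 genes were lower and 5 higher, where 26.5% of all genes tested were called and 16.4% called lower. Total-count scaling gave 13 lower and 10 higher and moved the median of all genes by 0.23, against -0.13 with TMM. The count of 36 was 23 without globular Tsu-1 × Col-0 replicate 1, 17 without bent Tsu-1 × Col-0 replicate 1 and 21 without mature Col-0 × Tsu-1 replicate 1.

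At zygote 63 genes were lower and 2 higher in Tsu-1 × Col-0, where 39.8% of all genes were called and 22.6% called lower. Members could pass the filter through the Col-0 × Tsu-1 zygote library alone, so these counts are no share of all 152 genes. The median log2 difference was -2.35 for the mitochondrial genes and -0.08 for all genes. Of 24 annotated genes, 18 were lower, among them all 3 annotated for complex I, all 3 for cytochrome c biogenesis and 3 of 5 named for ATP synthase (ATMG01090 included). ATMG00990 (NADH dehydrogenase subunit 3) had 0.226 and 0.430 CPM in Tsu-1 × Col-0 zygotes, against 35.7 CPM in the Col-0 × Tsu-1 library (-6.50 ± 0.62, adjusted p = 2.39e-08, edgeR). ATMG01170 had 0.139 and 0.324 CPM, against 54.8 CPM (-7.63 ± 0.79, adjusted p = 7.04e-08). ATMG01080 was an exception, at 44.2 and 104 CPM against 107 CPM (-0.28 ± 0.53, adjusted p = 0.714). Since the Col-0 × Tsu-1 zygotes have 1 library, this cross and that library cannot be told apart, and its spread is assumed to be that of the other groups. That library stood apart in other genes too. Of 11 seed storage genes 7 were lower in Tsu-1 × Col-0 zygotes, with summed levels of 54.2 and 67.3 CPM, against 1339 CPM in Col-0 × Tsu-1, and 7 of 16 embryo patterning genes were lower. Their part in the mitochondrial difference was not tested.

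The same direction continued with fewer genes at octant, where 9 genes were lower and 1 higher in Tsu-1 × Col-0 and 3.48% of all genes were called. ATMG01170 had 1.85 and 2.33 CPM in Tsu-1 × Col-0, against 39.1 and 33.7 CPM in Col-0 × Tsu-1 (-4.10 ± 0.61, adjusted p = 0.000174). ATMG00030 had 2.14 and 1.63 CPM, against 25.1 and 17.1 CPM (-3.43 ± 0.75, adjusted p = 0.00727), and ATMG01360 had 10.4 and 8.26 CPM, against 34.0 and 41.0 CPM (-1.97 ± 0.43, adjusted p = 0.00700). ATMG00020, the gene with most reads, had 351 and 238 CPM, against 1407 and 1455 CPM, without overlap, and did not pass the test (-2.24 ± 0.76, adjusted p = 0.114). The count was 3 without either Tsu-1 × Col-0 library and 4 without either Col-0 × Tsu-1 library. The adjusted p of ATMG00030 was 0.0668 to 0.150 without Col-0 × Tsu-1 replicate 1 or either Tsu-1 × Col-0 library, and that of ATMG01360 was 0.0740 to 0.159 without Col-0 × Tsu-1 replicate 2 or either Tsu-1 × Col-0 library.
At globular 9 genes were lower and none higher, where 0.75% of all genes were called. ATMG00030 had 2.92 and 2.02 CPM in Tsu-1 × Col-0, against 29.5 and 18.6 CPM in Col-0 × Tsu-1 (-3.52 ± 0.80, adjusted p = 0.0325). ATMG00830 had 6.56 and 6.73 CPM, against 53.8 and 26.3 CPM (-2.93 ± 0.42, adjusted p = 0.000638). ATMG00990 had 6.93 and 1.35 CPM, against 28.7 and 24.4 CPM (-2.72 ± 0.49, adjusted p = 0.00530). The groups did not overlap for these genes. The count was 2 without Col-0 × Tsu-1 replicate 1 or Tsu-1 × Col-0 replicate 1 and 4 without Tsu-1 × Col-0 replicate 2. Those 3 libraries ended the call of ATMG00030 (adjusted p 0.169 to 0.315). ATMG00990 lost it without Col-0 × Tsu-1 replicate 1 or Tsu-1 × Col-0 replicate 2 (0.0785 and 0.0663), and ATMG00830 without Tsu-1 × Col-0 replicate 1 (0.0701).

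At heart the calls split, with 5 genes higher and 8 lower in Tsu-1 × Col-0, where 7.53% of all genes were called. Total-count scaling gave 6 higher and 6 lower and moved the median of all genes by 0.24. All 11 seed storage genes were higher in Tsu-1 × Col-0, with summed levels of 47.1 and 3393 CPM, against 48.5 and 37.3 CPM in Col-0 × Tsu-1, so that replicate 2 of Tsu-1 × Col-0 stood apart, and their part in these differences was not tested. ATMG00730 (subunit 3 of cytochrome c oxidase) had 44.5 and 23.7 CPM in Tsu-1 × Col-0, against 7.18 and 5.25 CPM in Col-0 × Tsu-1 (2.17 ± 0.41, adjusted p = 0.00243), and ATMG01370 had 19.0 and 13.6 CPM, against 3.07 and 1.28 CPM (2.58 ± 0.67, adjusted p = 0.0181). ATMG00030, ATMG00830 and ATMG00990 stayed lower (-2.56 ± 0.68, -1.78 ± 0.38 and -1.72 ± 0.47, adjusted p = 0.0209, 0.00529 and 0.0250). The count was 2 without Col-0 × Tsu-1 replicate 1, 5 without its replicate 2 and 4 without Tsu-1 × Col-0 replicate 1. ATMG00990 lost its call without any 1 of the 4 libraries (adjusted p 0.0551 to 0.177), ATMG01370 without any but Tsu-1 × Col-0 replicate 2 (0.0568 to 0.202) and ATMG00030 without any but Col-0 × Tsu-1 replicate 2 (0.101 to 0.219). ATMG00730 lost it without Col-0 × Tsu-1 replicate 2 (0.0680) and ATMG00830 without replicate 1 of that cross (0.0521).
At torpedo 7 genes were higher and 7 lower, where 13.6% of all genes were called, and total-count scaling gave 7 and 5. ATMG00580 had 42.1 and 45.6 CPM in Tsu-1 × Col-0, against 15.9 and 16.6 CPM in Col-0 × Tsu-1 (1.28 ± 0.34, adjusted p = 0.0131), and ATMG01360 had 13.4 and 8.53 CPM, against 3.52 and 2.62 CPM (1.63 ± 0.44, adjusted p = 0.0145). Apocytochrome b (ATMG00220) had 2.15 and 1.64 CPM, against 9.17 and 14.8 CPM (-2.74 ± 0.42, adjusted p = 0.000195). ATMG00030 and ATMG00830 were again lower (-2.21 ± 0.71 and -1.47 ± 0.38, adjusted p = 0.0379 and 0.0115). The count was 5 and 6 without Tsu-1 × Col-0 replicates 1 and 2. ATMG00580 lost its call without any 1 of the 4 libraries (adjusted p 0.0562 to 0.0728). Leaving out Tsu-1 × Col-0 replicate 1 ended that of ATMG00030, ATMG00830 and ATMG01360 (0.319, 0.192 and 0.152). Col-0 × Tsu-1 replicate 1 did so for ATMG00030 (0.322) and replicate 2 for ATMG00830 and ATMG01360 (0.0607 and 0.0907).
At bent 2 genes were higher and 8 lower, where 15.8% of all genes were called. Total-count scaling gave 6 higher and 3 lower, and the median of all genes was -0.34 with TMM and 0.29 without. ATMG00830 had 1.04 and 2.17 CPM in Tsu-1 × Col-0, against 5.31 and 7.21 CPM in Col-0 × Tsu-1 (-3.08 ± 0.54, adjusted p = 0.000632). Seed storage genes took 7.24% and 9.78% of reads in Tsu-1 × Col-0, against 39.5% and 48.04% in Col-0 × Tsu-1, and 4 of 13 seed coat markers were higher in Tsu-1 × Col-0; their part in these differences was not tested. The count was 0 without Tsu-1 × Col-0 replicate 1 and 3 without Col-0 × Tsu-1 replicate 1.

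At mature the direction was the opposite of that at octant: 22 genes were higher and 2 lower in Tsu-1 × Col-0, where 15% of all genes were called and 6.28% called higher. Of 24 annotated genes 7 were higher, 2 of 3 complex I genes, 2 of 4 ribosomal proteins, 1 of cytochrome c biogenesis, subunit 3 of cytochrome c oxidase and 1 with another name. ATMG00730 had 37.5 and 45.9 CPM in Tsu-1 × Col-0, against 2.11 and 3.13 CPM in Col-0 × Tsu-1 (3.23 ± 0.44, adjusted p = 3.04e-05, edgeR). Its chromosome 2 copy AT2G07687 averaged 41.5 and 2.73 CPM in the same groups (3.16 ± 0.42, adjusted p = 2.38e-05, edgeR). This copy can share reads with ATMG00730 and is no separate evidence. ATMG00020 had 255 and 356 CPM, against 25.1 and 10.97 CPM (3.18 ± 0.79, adjusted p = 0.00765), and ATMG01370 had 30.6 and 26.3 CPM, against 1.14 and 4.66 CPM (2.64 ± 0.68, adjusted p = 0.00944). ATMG00090 had 29.1 and 27.9 CPM, against 4.79 and 7.20 CPM (1.46 ± 0.34, adjusted p = 0.00434).
Total-count scaling called 44 genes and moved the median of all genes by 0.80. The count was 9 without Col-0 × Tsu-1 replicate 2 and 15 and 7 without Tsu-1 × Col-0 replicates 1 and 2. The adjusted p of ATMG00020 was 0.0908 without Col-0 × Tsu-1 replicate 2 and 0.0615 without Tsu-1 × Col-0 replicate 2, and that of ATMG01370 was 0.131 without Col-0 × Tsu-1 replicate 1. In these embryos seed coat marker sums were 14.8 and 15.2 CPM in Tsu-1 × Col-0, against 7.81 and 15.7 CPM in Col-0 × Tsu-1. Seed storage genes took 19.5% and 19.7% of reads in Tsu-1 × Col-0, against 62.2% and 59.1% in Col-0 × Tsu-1, and their part was not tested.

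ATMG01090, the gene at the stretch shown above, was lower in Tsu-1 × Col-0 at all 6 stages from octant to mature and at zygote. It had 167 and 14.2 reads in the Col-0 ovules. At octant it had 1.00 and 0.34 reads in Tsu-1 × Col-0, against 71.3 and 111 reads in Col-0 × Tsu-1 (adjusted p = 3.58e-05, edgeR). At globular it had 0 reads in both Tsu-1 × Col-0 libraries, against 136 and 16 reads, which is at least 11.1-fold lower with 3 counts over the group as the floor (adjusted p = 0.00824). At heart it had 0.34 and 0 reads, against 73.3 and 28 reads (adjusted p = 0.00129).
At torpedo both Tsu-1 × Col-0 libraries had 0 reads, against 80.3 and 8.34 reads, at least 15.6-fold lower (adjusted p = 0.000582). At bent it had 0.66 and 0 reads, against 30.8 and 4.66 reads (adjusted p = 0.0294), and at mature 0.34 and 0.34 reads, against 23.6 and 5.66 reads (adjusted p = 0.00182). No Tsu-1 × Col-0 library of any of these stages had more than 1.00 read. Summed over the 6 stages this is 3.02 reads in Tsu-1 × Col-0, at 0.0301 CPM, and 588 reads in Col-0 × Tsu-1, at 2.46 CPM, 82.1-fold lower (exact 95% interval 27.95 to 399, counting error only). Leaving out 1 library ended the call at bent (adjusted p 0.0548 to 0.575 without Tsu-1 × Col-0 replicate 1 or 2 or Col-0 × Tsu-1 replicate 1) and at globular (0.0971 and 0.381 without replicate 1 of Col-0 × Tsu-1 or of Tsu-1 × Col-0).

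Its near-identical copy on chromosome 2 was also lower in Tsu-1 × Col-0 at 6 of the 7 stages, all but mature (adjusted p from 3.42e-07 at zygote to 0.0363 at heart, edgeR). AT2G07777 had 81.3 reads in Tsu-1 × Col-0 and 643 reads in Col-0 × Tsu-1 from octant to mature, 3.32-fold lower (exact 95% interval 2.64 to 4.24). At mature it had 47.2 reads in Tsu-1 × Col-0, against 60.4 reads in Col-0 × Tsu-1, a ratio of CPM of 1.496 (exact 95% interval 0.999 to 2.23), and after TMM scaling the log2 difference had the other sign (-0.21 ± 0.45, adjusted p = 0.803, edgeR), while ATMG01090 had 0.68 and 29.2 reads in the same libraries. Atp9, 310 bases away, was read in both crosses: ATMG01080 averaged 2.38 ± 0.14 CPM in Tsu-1 × Col-0 and 9.26 ± 0.96 CPM in Col-0 × Tsu-1 at octant (-1.91 ± 0.51, adjusted p = 0.0316), and 1.01 ± 0.19 and 0.370 ± 0.111 CPM at mature (0.49 ± 0.69, adjusted p = 0.685). Whether the Tsu-1 mitochondrial genome holds ATMG01090 was not tested.

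A further pair of genes was singled out after their values were seen. ATMG01180 had 0 reads in all 12 Tsu-1 × Col-0 libraries from octant to mature, against 46.5 reads in Col-0 × Tsu-1, at least 6.49-fold lower with 3 counts over the group as the floor. It did not pass the filter on low counts in this model, so it has no test. Its copy on chromosome 2, AT2G07667, had 2.5 reads in Tsu-1 × Col-0 and 425 reads in Col-0 × Tsu-1 over the same stages and was lower at each of them (adjusted p from 8.91e-05 at mature to 0.0168 at globular, edgeR). ATMG00910 went the other way, at 2.09 and 2.28 CPM in Tsu-1 × Col-0 and 0.0389 and 0.116 CPM in Col-0 × Tsu-1 at octant. It was called higher in Tsu-1 × Col-0 at octant, heart, torpedo, bent and mature (adjusted p = 0.00148, 0.0443, 0.0155, 0.0303 and 0.00284), with overlapping libraries at bent. From octant to mature it had 129 reads, against 42.1 reads, 7.33-fold higher in CPM (exact 95% interval 5.14 to 10.7). The copy of ATMG00910 on chromosome 2, AT2G07773, was lower in Tsu-1 × Col-0 on the mean of these stages (-1.18 ± 0.23, adjusted p = 0.000519).

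**Figure D4:**
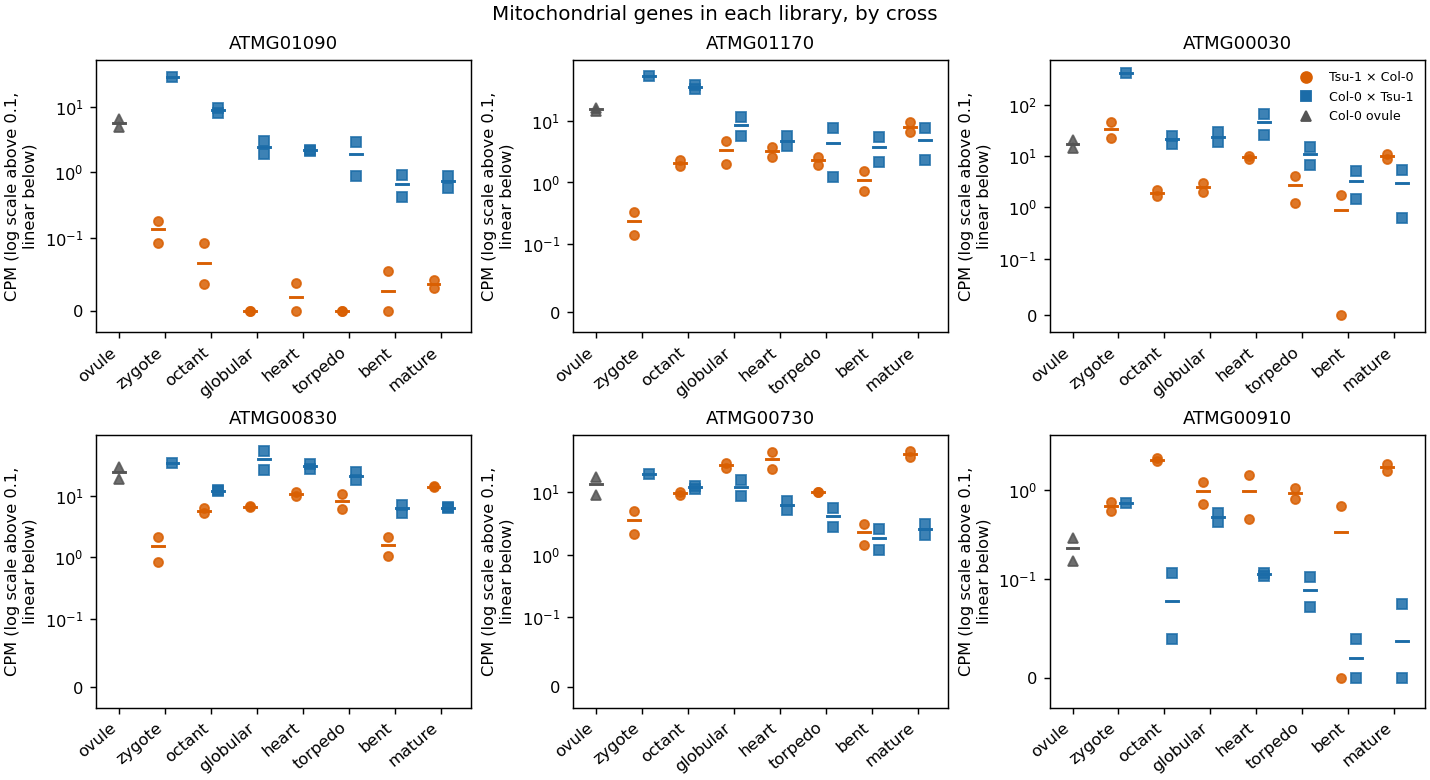
CPM of 6 mitochondrial genes in each library by stage, on an axis that is logarithmic above 0.1 CPM and linear below. Each symbol is 1 library and each bar a group mean. In Tsu-1 × Col-0, ATMG01090 stays below the Col-0 × Tsu-1 libraries at every stage, ATMG00030 lies lower up to torpedo and ATMG00830 up to bent. ATMG00730 lies lower in that cross at zygote and higher at heart and at mature, where it has 37.5 and 45.9 CPM. ATMG00910 lies higher at octant, heart, torpedo and mature, with the crosses closer at globular and overlapping at bent.

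Whether a stage step differed between the crosses was tested in the same model. For the step from zygote, Col-0 × Tsu-1 zygotes have 1 library, which cannot be left out. The cross and that library cannot be told apart there. From zygote to octant the change differed for 24 of 100 genes, 23 of them with a higher log2 change in Tsu-1 × Col-0, where 24.7% of all genes were called. ATMG01320 (NADH dehydrogenase 2B) had 12.4 CPM at octant and 0.994 CPM at zygote in Tsu-1 × Col-0, against 14.7 CPM at octant and 50.4 CPM at zygote in Col-0 × Tsu-1 (difference of log2 changes 5.13 ± 0.63, adjusted p = 2.58e-06). The count was 13 without zygote or octant Tsu-1 × Col-0 replicate 1. From octant to globular 0 genes differed (12 at an unadjusted p under 0.05, 0 by DESeq2), where 0.714% of all genes were called. From globular to heart 0 differed (16 unadjusted, 1 by DESeq2), where 0.223% were called, and from torpedo to bent 0 differed (10 unadjusted, 0 by DESeq2), where 0.686% were called.
From heart to torpedo 7 genes differed, 6 with a higher change in Tsu-1 × Col-0, where 7.35% of all genes were called. ATMG00990 had 6.42 CPM at torpedo and 3.16 CPM at heart in Tsu-1 × Col-0, against 0.514 CPM at torpedo and 8.67 CPM at heart in Col-0 × Tsu-1 (5.47 ± 0.74, adjusted p = 9.22e-05). That count was 2 to 4 without any of 7 of the 8 libraries, all but torpedo Col-0 × Tsu-1 replicate 1. From bent to mature 11 genes differed, all with a higher log2 change in Tsu-1 × Col-0, where 4.93% of all genes were called. Among them were ATMG00730, at 41.7 CPM at mature and 2.28 CPM at bent in Tsu-1 × Col-0, against 2.62 and 1.88 CPM in Col-0 × Tsu-1 (3.21 ± 0.67, adjusted p = 0.00504), and the OB-fold protein ATMG00560 (3.54 ± 0.96, adjusted p = 0.0305). Without bent Tsu-1 × Col-0 replicate 1 the adjusted p was 0.0560 for ATMG00730 and 0.285 for ATMG00560, and leaving out 5 other libraries, 1 at a time, gave 0.0521 to 0.117 for ATMG00560. ATMG00170 and ATMG00620, with identical values, count as 1 signal. The count was 0 without bent Tsu-1 × Col-0 replicate 1, 5 or 6 without bent Tsu-1 × Col-0 replicate 2, bent Col-0 × Tsu-1 replicate 1, mature Col-0 × Tsu-1 replicate 2 or either mature Tsu-1 × Col-0 library.

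Nuclear genes for mitochondrial proteins were read from the same tests, beside the shares over all genes. Of 39 nuclear subunits of the respiratory chain and ATP synthase, 38 were tested at bent against torpedo, where 2 rose and 14 fell and 44.7% of all genes were called, and at mature against bent, where 6 rose and 7 fell and 54.8% of all genes were called. Of 7 genes of mitochondrial DNA maintenance, 6 fell at bent, among them AT1G30680 at 4.43 CPM at bent and 62.8 CPM at torpedo (-2.93 ± 0.42, adjusted p = 0.000128), and 3 rose at mature. Of 12 genes of mitochondrial RNA synthesis, processing and decay, 5 rose and 0 fell at globular against octant, where 37.1% of all genes were called, and 3 rose at mature against bent. The counts of respiratory subunits and RNA genes lay near or below the shares over all genes.
Between the crosses, none of 66 nuclear genes, 8 of them alternative oxidases and outer membrane channels, was called at octant or at globular by edgeR (3 and 7 at an unadjusted p under 0.05), where 3.48% and 0.75% of all genes were called. At zygote 10 of 39 respiratory subunits were higher in Tsu-1 × Col-0 and 2 lower, where 39.8% of all genes were called. They were 0 higher and 7 lower at torpedo, where 13.6% of all genes were called, 0 higher and 8 lower at bent, where 15.8% were called, and 1 higher and 15 lower on the mean of octant to mature, where 26.5% of all genes were called. At bent 5 of 12 RNA genes, 4 of 7 genes of DNA maintenance and 4 of 8 alternative oxidases and channels were lower in Tsu-1 × Col-0, and none was higher. At mature 3 of 12 RNA genes were higher in Tsu-1 × Col-0, among them AT3G22310 at 81.7 CPM, against 4.26 CPM in Col-0 × Tsu-1 (3.39 ± 0.60, adjusted p = 0.000452), and AT3G22330 at 336 CPM, against 23.7 CPM (2.96 ± 0.52, adjusted p = 0.000408). None of 39 respiratory subunits was higher and 2 were lower there, where 15% of all genes were called.

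The parental origin of mitochondrial reads was read from the authors' deposited table, which gives for each stage and cross the maternal percentage of reads over variants between the accessions, pooled over libraries. In it 4 mitochondrial genes had at least 10 intronic variant reads in some group. In the authors' deposited table ATMG00090 was 98.8% maternal at octant (17 variant reads), 98.8% at heart (18), 98.7% at torpedo (18) and 99.5% at mature (35) in Tsu-1 × Col-0. In Col-0 × Tsu-1 the authors' deposited table gave it 0.104% maternal at zygote (234 variant reads) and 0.916% at octant (25). At later stages of that cross the authors' deposited table gave it 0.548% (globular, 65), 0.480% (heart, 72), 1.42% (torpedo, 23) and 0.794% (mature, 24). In both crosses the reads of this gene were given to Tsu-1.
ATMG00060 did the same in the authors' deposited table, with 99.6% maternal in Tsu-1 × Col-0 zygotes (61 variant reads), against 0.130% in Col-0 × Tsu-1 zygotes (187) and 0.999% to 4.57% at 4 later stages of that cross. ATMG01120 was 0.208% to 3.11% maternal at 3 stages of Col-0 × Tsu-1 and had under 10 variant reads at each stage of Tsu-1 × Col-0. Over these 3 genes 3 of 5 values in Tsu-1 × Col-0 and 11 of 14 in Col-0 × Tsu-1 had an adjusted p-value under 0.05 in the authors' deposited table. ATMG00510 was mostly maternal in both crosses, 97.5% in Tsu-1 × Col-0 zygotes and 96.7% in Col-0 × Tsu-1 globular embryos (10 variant reads each), with neither adjusted p-value under 0.05 in the authors' deposited table.
Chloroplast genes in the authors' deposited table differed among themselves: ATCG01100 was 65.2% to 89.3% maternal in Tsu-1 × Col-0 and 77.3% to 99.5% in Col-0 × Tsu-1, while ATCG00730 was 70.9% to 83.9% maternal in Tsu-1 × Col-0 and 9.02% to 28.4% in Col-0 × Tsu-1. For ATMG00060, ATMG00090 and ATMG01120 the authors' deposited table thus gives the paternal accession in Col-0 × Tsu-1. The TAIR10 mitochondrial sequence is known to come from the accession C24, and the part of this, or of the chromosome 2 copies, in the assignment of reads was not tested.

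**Figure D5:**
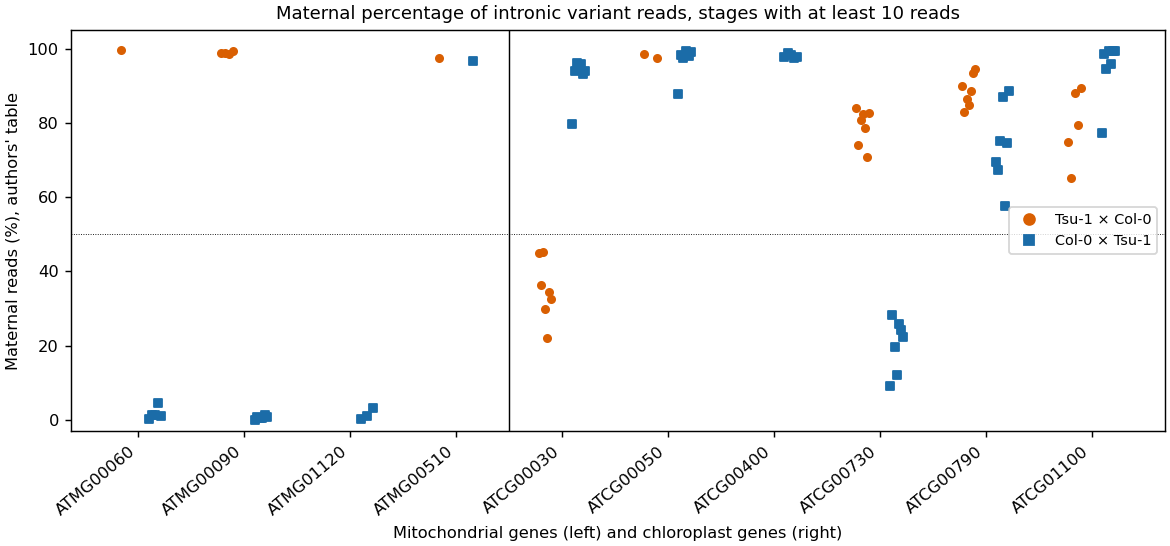
Maternal percentage of intronic variant reads in the authors' deposited table for 4 mitochondrial genes (left of the line) and 6 chloroplast genes (right), 1 symbol per stage and cross with at least 10 variant reads, Tsu-1 × Col-0 (circles) left of Col-0 × Tsu-1 (squares). ATMG00060, ATMG00090 and ATMG01120 lie near 100% in Tsu-1 × Col-0 where they have a value and between 0.104% and 4.57% in Col-0 × Tsu-1.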

How the data were processed

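RNA-seq libraries were made from amplified polyA RNA, per the labels' protocols. The deposited table holds estimated counts of reads per gene and library that are not all whole, as the authors made them. STAR 2.7.0d, featureCounts 1.6.0 and edgeR and the build TAIR10 are named in the submitters' processing notes, with no role or order. The authors' deposited parental table gives maternal fractions, shrunk towards 0.5, adjusted p-values and variant read counts for groups of libraries, so no test between libraries was made on it. Its 42 columns on exonic reads, empty for organelle genes, were not used. Sequences and names came from RefSeq (TAIR10.1). Names matched 24 of 152 identifiers.

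Counts were rounded and tested with edgeR 4.0.16 (R 4.3.3, quasi-likelihood F test, TMM, filterByExpr), with p-values adjusted over all genes by Benjamini-Hochberg and a threshold of 0.05. Stage steps used the libraries of both stages with the cross as covariate (none for zygote against ovule). Reciprocal crosses used 1 model of all 29 libraries, and the test of the difference between crosses in a step was added after the data were seen, as were the values without the Col-0 × Tsu-1 zygote library and the alternatives for shares between crosses within a stage. DESeq2 1.42.0, total-count scaling, no filter, a replicate block and leaving out libraries were alternatives. Tested on simulated data with 200 genes changed 4-fold, the fit recovered 90.5% at globular against octant (19051 genes) and 50% between crosses at heart (25062 genes). It also called 12 and 9 unchanged genes, in the same order.

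Genes named were the 10 with the highest mean CPM and, per comparison and direction, up to 3 called genes with the largest change and no overlap at a mean of 5 CPM or more; others were named after their values were seen. The members and lists were chosen with earlier results of these data known. Replicates of each group differed beyond counting noise (chi-square of 9.87 to 233 per degree of freedom). Nothing states whether replicates came from separate plants, so p-values measure the spread between these samples. Intervals and floors (3 reads) cover counting error only.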

Additional observations from a re-analysis of the deposited data

Results flagged for a closer look

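The rise of ATMG00090 from bent to mature differed between the crosses. It averaged 28.5 CPM at mature and 3.94 CPM at bent in Tsu-1 × Col-0, against 5.995 CPM at mature and 3.87 CPM at bent in Col-0 × Tsu-1. The difference of the log2 changes was 2.27 ± 0.53 (adjusted p = 0.0118, edgeR's quasi-likelihood test of the interaction), and both mature libraries of Tsu-1 × Col-0 were above both of Col-0 × Tsu-1. Without bent Tsu-1 × Col-0 replicate 1, which leaves a shallow library as the only bent one of that cross, the difference was 2.19 ± 0.77 and the call was lost (adjusted p = 0.190, edgeR). Seed storage genes took 19.5% and 19.7% of reads in the mature Tsu-1 × Col-0 libraries, against 62.2% and 59.1% in those of Col-0 × Tsu-1, and their part in this difference was not tested.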

How the results depend on the processing

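Over 418 alternatives for the named genes, 339 kept direction and call, 79 kept the direction without the call and 0 reversed. Leaving out 1 library gave 65 of the 79. These genes were named in part for being called with groups that did not overlap. The lack of reversals follows in part from that choice. The counts of called genes that moved by over 1.5 times follow, and the cause was not tested. With total-count scaling they were 2 at zygote against ovule, 20 at octant against zygote, 19 at bent against torpedo, 12 at mature against bent, 44 between crosses at mature, 23 on the mean of octant to mature and 4 for the difference between crosses at torpedo against heart. With DESeq2 they were 17 at zygote against ovule, 8 at torpedo against heart, 5 between crosses at bent and 1 for the difference at heart against globular. Without the low-count filter they were 15 at zygote against ovule, 21 at globular against octant, 13 at bent against torpedo, 77 at mature against bent, and 2 and 3 for the differences at globular against octant and heart against globular. Tsu-1 × Col-0 libraries alone gave 3 at globular against octant, 0 at heart against globular and 57 at mature against bent. Col-0 × Tsu-1 libraries alone gave 79 at octant against zygote, 13 at torpedo against heart, 1 at bent against torpedo and 9 at mature against bent. The libraries of a stage alone gave 38 calls between crosses at octant, 4 at globular, 9 at torpedo and 1 at bent.

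Replicate numbers did not pair the libraries throughout: over 17 pairs of groups the deviations of same-numbered libraries correlated at -0.196 to 0.42, above 0.1 in 4. These 4 were consecutive stages of the same cross. They were 0.42 (torpedo and bent) and 0.28 (bent and mature) in Col-0 × Tsu-1, and 0.29 (globular and heart) and 0.16 (heart and torpedo) in Tsu-1 × Col-0. Replicate 1 of Col-0 × Tsu-1 was the deeper library at each stage from globular to mature, and the part of depth was not tested. With the replicate number as a block, the count at heart against globular was 1, and no other count moved by over 1.5 times (26 at octant against zygote, 29 at mature against bent).

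Leaving out 1 library at a time, the counts were 0 to 35 at zygote against ovule, 21 to 39 at octant against zygote, 6 to 16 at globular against octant, 0 to 2 at heart against globular, 2 to 8 at torpedo against heart, 1 to 8 at bent against torpedo and 24 to 34 at mature against bent. Between crosses they were 53 to 54 at zygote, 3 to 4 at octant, 2 to 12 at globular, 2 to 9 at heart, 5 to 12 at torpedo, 0 to 8 at bent, 7 to 16 at mature and 17 to 39 on the mean. For the difference between crosses they were 13 to 23, 0 to 1, 0 to 0, 2 to 10, 0 to 0 and 0 to 15 over the steps in order from octant against zygote. The Col-0 × Tsu-1 zygote library cannot be left out of a comparison between crosses at zygote.

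The log2 share of zygote over ovule, -0.53, was 0.84 without ATMG00020, ATMG01380 and ATMG01390 and 0.31 with TMM library sizes. That of heart over globular, 0.35, was -0.0855 without those genes. The drop of torpedo over heart was -0.51 without them, and that of bent over torpedo was -1.18 without storage genes in the totals and -0.96 with TMM sizes. Leaving out 1 library gave -1.87 to 0.37, -1.80 to 0.44, -0.61 to 0.13, 0.10 to 0.66, -1.35 to -0.99, -1.87 to -1.49 and 0.50 to 1.41 over the 7 steps in order, and -0.12 to 0.10 for the crosses. Between the crosses within a stage, the log2 share at bent, 0.24, was -0.16 without those genes, -0.47 without storage genes in the totals, -0.56 with TMM sizes and -0.13 without Col-0 × Tsu-1 replicate 2. Leaving out 1 library gave -0.13 to 0.61 at bent, -0.27 to 0.76 at torpedo and -1.20 to 0.0685 at globular. At torpedo, 0.24 became -0.0753 and -0.27 without replicate 2 of Tsu-1 × Col-0 and of Col-0 × Tsu-1, and at globular, -0.57 became 0.0685 without Col-0 × Tsu-1 replicate 1. In the authors' deposited table the median maternal percentage over mitochondrial genes and stages with at least 10 variant reads was 98.8 in Tsu-1 × Col-0 (6 values) and 0.999 in Col-0 × Tsu-1 (15 values). With a minimum of 1 variant read these medians of the authors' deposited table were 96.5 (24 values) and 3.69 (28 values), and with 50 they were 99.6 (1 value, ATMG00060 at zygote) and 0.208 (5 values). Depth limits the bent stage most, where 1 library held 103 mitochondrial reads.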
